A study of Homo sapiens with 4 samples.

Results

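The genes described here are 45 genes of the cell division cycle, 23 that act in DNA replication and 22 that act in mitosis, out of 19891 genes with a probe set of their own on the array. They were chosen by name, with earlier results of these data known. Each gene is represented by its probe set with the highest mean signal over the 4 arrays. The file lists 44 of them under these symbols and CDC45 under the older symbol CDC45L. All 45 passed the filter on low signals, and 43 were called present on all 4 arrays. The exceptions were CDC45, called absent on knockdown array 1, and E2F1, called present on control array 1 alone.

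The cells were SAS, an established line from a human oral squamous cell carcinoma, grown in medium with 10% serum. The knockdown group (2 arrays) was infected with the retroviral vector pSINsi-hU6 expressing a short hairpin RNA against SPINT1, the gene of the protease inhibitor HAI-1, and the control group (2 arrays) with the same vector carrying a scrambled hairpin. Both groups were therefore infected and both expressed a hairpin, and neither was uninfected SAS. The labels do not say whether the infected cells were a clone or a pool, or whether the 2 arrays of a group came from separate cultures, so each p-value reflects array-to-array spread, which may be technical. The 2 hairpin target sequences define the groups and are printed with capitals at the 12 of 21 positions where they differ; they hold the same bases in another order.
SPINT1 target: gggCAggCATAGAcTTgaAgG
Scrambled control: gggACggAGATTTcACgaGgA

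Replication begins with licensing, in which CDC6 and CDT1 load the ring of the proteins MCM2 to MCM7 onto origins. CDC45 and the GINS complex then turn the ring into the active helicase, PCNA and its loaders hold the polymerases on the template, and ribonucleotide reductase and thymidylate synthase supply the nucleotides. Transcription of many of these genes is driven by E2F factors at the entry into S phase, whereas genes of mitosis are mostly transcribed later, through CCAAT boxes and a short element called the cell cycle genes homology region (CHR). In bulk RNA, more cells in a phase and more RNA per cell in that phase cannot be told apart.

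SPINT1 read 135 and 282 on the knockdown arrays, against 1451 and 1445 on the control arrays, a log2 change of -2.79 (SE 0.25, limma adjusted p = 4.2e-05). It was called absent on knockdown array 1. The other SPINT1 probe set, called absent on all 4 arrays, did not pass (log2 change -0.11, limma adjusted p = 0.79). It read 203 and 263 on the knockdown arrays, against 222 and 282 on the control arrays. Signals throughout are MAS5 signals, a summary brightness per probe set on a linear scale, and changes are differences of log2(signal + 16), knockdown minus control, tested with limma's moderated test and Benjamini-Hochberg adjustment over 27307 probe sets at a threshold of 0.05. Of 12572 genes tested, 19.3% passed, 8.74% higher and 10.6% lower in knockdown cells, and the median log2 change was 0.02. Between 45.6% and 48.1% of probe sets were called present per array, and the ratio of 3′ to 5′ signal of GAPDH, a sign of RNA integrity, lay between 0.98 and 1.04. That of actin was 1.47 and 1.86 on the knockdown arrays and 1.60 and 1.57 on the control arrays. All 10 epithelial markers were present on the knockdown arrays and 9 of 10 on the control arrays; of them KRT5 passed as higher (log2 change 1.39, adjusted p = 0.00027) and SFN as lower (-0.42, adjusted p = 0.037). The leukocyte markers PTPRC and CD3E and the endothelial marker VWF were called present on no array. CD14 was present on all 4 arrays, with 620 and 569 on the knockdown arrays and 757 and 607 on the control arrays, and LAPTM5, another leukocyte marker, passed as higher (log2 change 1.34, adjusted p = 0.023). LUM, a fibroblast marker under the filter, was present on the knockdown arrays alone, at 60.6 and 45.1, against 21.0 and 7.46 on the control arrays. COL1A2, also under the filter and called absent on all 4 arrays, went the other way. It read 37.6 and 19.6 on the knockdown arrays, against 65.7 and 44.6 on the control arrays. For the fibroblast markers COL1A1, DCN and PDGFRB the groups overlapped. The summed signal of 6 leukocyte markers was 942 and 863 on the knockdown arrays and 955 and 752 on the control arrays, and that of 5 fibroblast markers 335 and 355 against 431 and 312. For 4 endothelial markers it was 976 and 1341 on the knockdown arrays and 644 and 621 on the control arrays. Most of that sum was CDH5, at 572 and 1091 on the knockdown arrays and 410 and 396 on the control arrays. CDH5 and TEK passed as higher, whereas PECAM1 had overlapping groups and did not pass (log2 change -0.18, adjusted p = 0.77). The part of these markers in the results below was not tested.

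The replication genes lay mostly lower and the mitosis genes mostly higher in knockdown cells, by small amounts. The log2 change was below 0 for 20 of 23 replication genes (87%, against 47.5% of all genes tested) and above 0 for 19 of 22 mitosis genes (86.4%, against 52.5%). The median log2 change was -0.23 for the replication genes and 0.21 for the mitosis genes. As the genes were chosen with earlier results known, these shares and medians are a description and not a test. Few of these differences passed the test. Of the replication genes 3 fell (13%, against 10.6% of all genes), CDC6, MCM6 and MCM7, and 2 rose, TYMS and CCNE1. Of the mitosis genes 4 rose (18.2%, against 8.74% of all genes), AURKA, BUB1, KIF20A and UBE2C, and 0 fell by limma's test. At an unadjusted p under 0.05 the counts were 8 replication genes lower and 2 higher, and 9 mitosis genes higher and 0 lower, where 17.3% of all genes tested were lower and 17% higher. Over both groups 9 of 45 passed, or 20%, close to the 19.3% of all genes. The knockdown arrays did not overlap the control arrays for 15 replication genes on the lower side, where 29.5% of all genes tested lay, and for 14 mitosis genes on the higher side, where 32.1% of all genes lay.

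**Figure D1:**
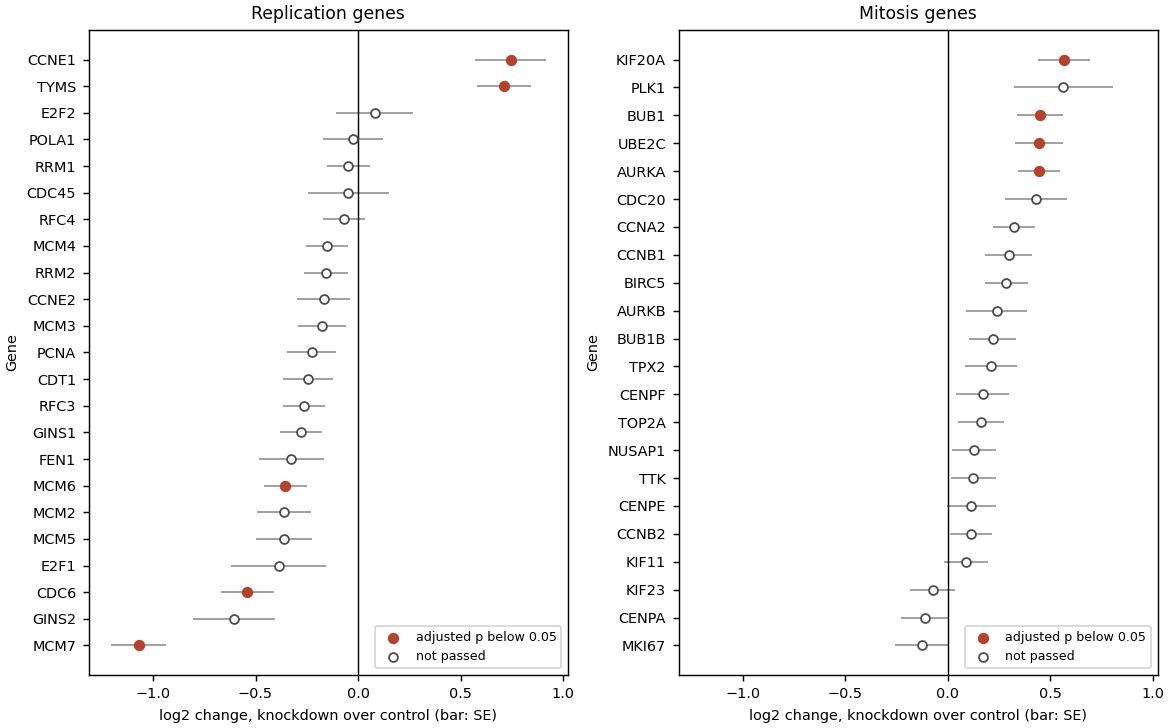
Log2 change of each replication gene (left) and mitosis gene (right), knockdown over control, from 2 arrays per group, with bars for the SE of the fit. Filled points passed the threshold on the adjusted p; 20 of 23 replication genes lie left of 0, and 19 of 22 mitosis genes lie right of 0.

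The arrays of a group also differed from each other in these genes. Each gene's log2(signal + 16) was set against its mean over the 4 arrays. The median over the replication genes was then -0.19 on knockdown array 1 and 0.01 on knockdown array 2, against 0.16 and 0.10 on the control arrays. The median over the mitosis genes was 0.06 and 0.16 on the knockdown arrays, against -0.18 on control array 1 and -0.0045 on control array 2. The groups do not overlap in either median, but the gap between the knockdown arrays in the replication genes, and between the control arrays in the mitosis genes, is wider than the gap between the nearest arrays of the 2 groups. Knockdown array 1 read lower than knockdown array 2 for 21 of 23 replication genes, compared with 54.2% of all genes tested. Control array 1 read lower than control array 2 for 20 of 22 mitosis genes, compared with 49.8% of all genes.

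The counts of calls depended on single arrays, among these genes and over all probe sets. As reported, 1977 probe sets were called higher and 2267 lower, against 1036 and 1164 without control array 1 and 1171 and 1329 without control array 2. Without knockdown array 1 the fit called 3 replication genes lower and 9 mitosis genes higher, and without knockdown array 2 it called 8 and 4. Without control array 1, where calls over all probe sets also fell, the counts were 1 and 0, and without control array 2 they were 3 and 2. The medians kept their direction, between -0.29 and -0.12 for the replication genes and between 0.09 and 0.32 for the mitosis genes.

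**Figure D2:**
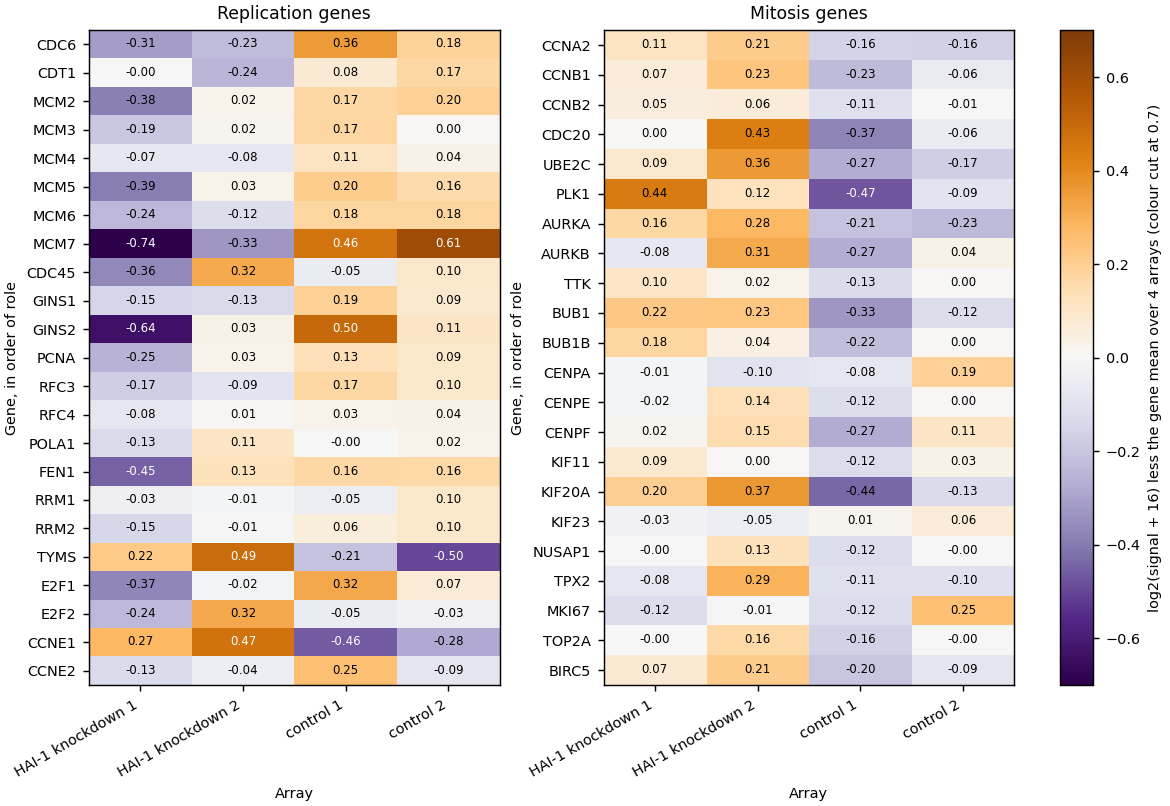
Log2(signal + 16) of each gene less its mean over the 4 arrays, for replication genes (left) and mitosis genes (right), with the value printed in each cell and 1 column per array. In the replication panel the lowest values stand mostly in the column of knockdown array 1, and in the mitosis panel the lowest values stand mostly in the column of control array 1.

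The promoters of these genes were read to see which of the textbook elements they carry. RefSeq windows of 300 bases (250 before the annotated start, GRCh38.p14) were at hand for 37 of the 45 genes; MCM4, MCM5, CCNE2, UBE2C, AURKA, TTK, TPX2 and BIRC5 had none. Searched on both strands, an E2F element (TTTCCCGC, TTTCGCGC, TTTGGCGC or TTTGCCGC) was found for 14 of 20 replication genes and 2 of 17 mitosis genes, against 3.99% of the 27305 genes in the table. A CHR (TTTGAA) was found for 1 of 20 replication genes and 11 of 17 mitosis genes, against 18.2% of all genes. A CCAAT box was found for 12 of 20 replication genes and 15 of 17 mitosis genes, against 39.7% of all genes. A gene with several annotated starts was counted where any of its windows held the element, and overlapping matches of an element were counted once.

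Stretches of 200 bases that end at the start site are printed for genes of both directions, with the matched elements in capitals (CCAAT may read ATTGG, CHR TTCAAA, and E2F the reverse complement of the letters above). MCM6 and MCM7 fell and TYMS, BUB1 and KIF20A rose, while CCNB2, which did not pass, is shown for its CHR.
MCM6, chr2:135876444-135876643, minus strand: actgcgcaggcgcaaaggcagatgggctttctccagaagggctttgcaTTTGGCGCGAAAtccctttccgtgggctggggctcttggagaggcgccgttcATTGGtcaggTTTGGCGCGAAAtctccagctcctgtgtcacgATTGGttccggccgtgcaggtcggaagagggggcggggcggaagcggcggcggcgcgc
MCM7, chr7:100101398-100101597, minus strand: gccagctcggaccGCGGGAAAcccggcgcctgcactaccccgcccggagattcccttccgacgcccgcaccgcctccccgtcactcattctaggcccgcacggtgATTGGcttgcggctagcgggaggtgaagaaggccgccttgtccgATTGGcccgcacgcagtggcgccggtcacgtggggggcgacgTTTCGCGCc
TYMS, chr18:657453-657652, plus strand: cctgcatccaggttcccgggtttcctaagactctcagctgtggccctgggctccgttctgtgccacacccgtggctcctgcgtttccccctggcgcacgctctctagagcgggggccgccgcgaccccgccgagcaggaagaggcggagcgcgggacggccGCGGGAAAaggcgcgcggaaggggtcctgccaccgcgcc
BUB1, chr2:110678064-110678263, minus strand: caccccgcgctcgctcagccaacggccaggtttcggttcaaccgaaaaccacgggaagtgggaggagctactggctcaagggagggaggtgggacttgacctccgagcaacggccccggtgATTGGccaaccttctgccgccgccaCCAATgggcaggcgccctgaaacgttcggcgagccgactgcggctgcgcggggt
KIF20A, chr5:138178912-138179111, plus strand: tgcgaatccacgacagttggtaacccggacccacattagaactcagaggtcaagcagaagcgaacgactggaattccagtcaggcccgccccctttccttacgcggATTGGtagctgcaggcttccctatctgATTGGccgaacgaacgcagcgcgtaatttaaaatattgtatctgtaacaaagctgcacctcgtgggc
CCNB2, chr15:59104946-59105145, plus strand: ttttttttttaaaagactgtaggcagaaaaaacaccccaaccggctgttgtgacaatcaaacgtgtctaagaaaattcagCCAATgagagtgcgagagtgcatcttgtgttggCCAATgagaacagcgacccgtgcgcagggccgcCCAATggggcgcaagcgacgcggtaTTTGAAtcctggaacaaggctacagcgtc
In MCM6 the E2F matches began 152 and 90 bases before the start, in MCM7 187 and 9 bases before its most upstream start, and in TYMS 39 bases before. BUB1 and KIF20A each held a pair of CCAAT boxes, at 79 and 54 bases and at 94 and 67 bases, and no CHR with these letters. CCNB2 held CCAAT boxes at 120, 87 and 54 bases and a CHR at 29 bases. The E2F element stood both in MCM6 and MCM7, which fell, and in TYMS, which rose. The windows of the other MCM7 starts held 0. Of the called replication genes not printed, CDC6, which fell, held 1 E2F match in its window, and CCNE1, which rose, held 0.

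Of the licensing factors, CDC6 fell. It read 673 and 716 on the knockdown arrays, against 1079 and 957 on the control arrays, a log2 change of -0.54 (SE 0.13, adjusted p = 0.017). Both knockdown arrays lay under both control arrays, but the adjusted p was 0.18 without control array 1, and the other CDC6 probe set did not pass (log2 change -0.27, adjusted p = 0.20). CDT1, its partner in loading the ring, read 1682 and 1420 in knockdown cells, against 1774 and 1892 in control cells, and did not pass (log2 change -0.24, adjusted p = 0.21). The second CDT1 probe set had a log2 change of 0.11.

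All 6 subunits of the MCM ring had log2 changes below 0, as had 47.5% of all genes tested, and MCM7 stood apart from the other 5. MCM7 read 4359 and 5785 on the knockdown arrays, against 10040 and 11107 on the control arrays, a log2 change of -1.07 (SE 0.14, adjusted p = 0.00039), or 2.10-fold lower. Its other probe set read 3901 and 4672 in knockdown cells, against 7362 and 7738 in control cells, and fell as well (log2 change -0.82, adjusted p = 0.00070). The groups were far apart on both probe sets, and MCM7 was the only one of the 9 called genes that passed under every alternative setting run, with adjusted p between 1.1e-05 and 0.046.

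MCM6 read 7168 and 7808 in knockdown cells, against 9584 and 9568 in control cells (log2 change -0.36, SE 0.10, adjusted p = 0.041). Its call did not hold when control array 1 (adjusted p = 0.29) or control array 2 (0.27) was left out, or with the replicate number as a block (0.060). MCM2 read 3395 and 4504 in knockdown cells, against 4982 and 5084 in control cells (log2 change -0.36, adjusted p = 0.091). MCM5 read 1806 and 2418 in knockdown cells, against 2737 and 2649 in control cells (log2 change -0.36, adjusted p = 0.10). In both genes knockdown array 1 was the low one, and without it the log2 changes were -0.16 for MCM2 (adjusted p = 0.28) and -0.15 for MCM5 (adjusted p = 0.38). Without knockdown array 2 they were -0.57 for both (adjusted p = 0.0025 and 0.0054).

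MCM4 read 5545 and 5538 in knockdown cells, against 6323 and 5995 in control cells (log2 change -0.15, adjusted p = 0.36). Its second probe set read 4640 and 5152 against 6682 and 6357 in the same order and passed (log2 change -0.41, adjusted p = 0.022), so the probe sets of MCM4 disagree on the call. MCM3 read 2261 and 2625 in knockdown cells, against 2916 and 2596 in control cells, and was the only ring subunit whose groups overlapped (log2 change -0.17, adjusted p = 0.36).

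**Figure D3:**
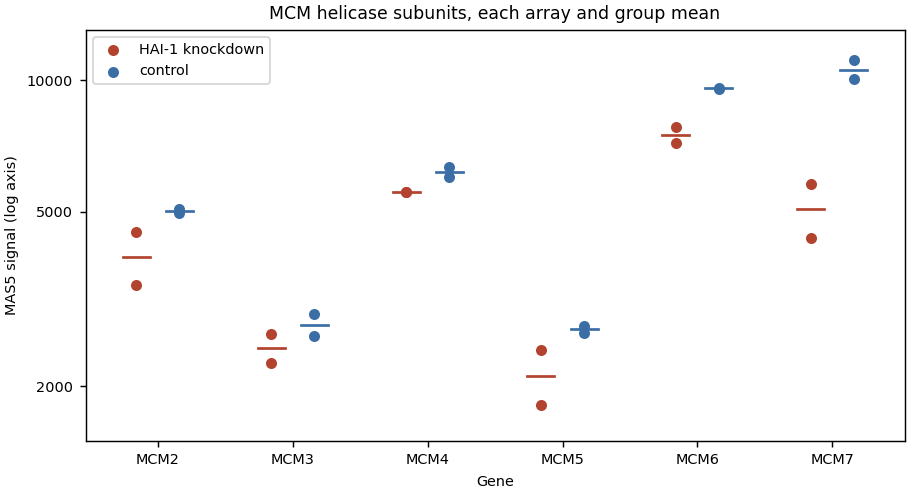
MAS5 signal (log axis) of the 6 MCM ring genes on each array, with knockdown arrays left of control arrays and a line at each group mean. MCM7 shows the widest gap, and MCM3 is the only gene whose groups overlap.

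MCM7 lies on chromosome 7 among genes that were also often lower. Of 92 other genes tested whose probe sets lie within 5 Mb of it, 23 were called lower (25%) and 3 higher (3.26%), against 10.6% and 8.74% of all genes, with a median log2 change of -0.21. Around MCM6, on chromosome 2, 3 of 20 neighbours were lower and 2 higher, with a median of 0.07, and around CDC6, on chromosome 17, 14 of 155 were lower and 18 higher, with a median of 0.05. What part the neighbourhood has in the fall of MCM7 was not tested. With MCM7 left out, which was decided after its neighbours were seen, 2 of 22 replication genes fell and the median was -0.20.

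**Figure D4:**
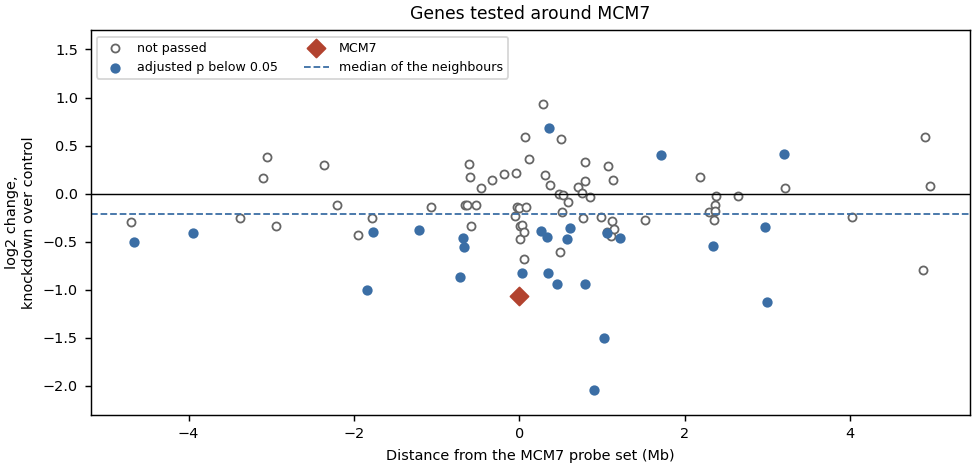
Log2 change, knockdown over control, of the genes tested within 5 Mb of the MCM7 probe set, by distance in Mb; filled points passed the threshold, and the dashed line is the neighbours' median of -0.21. MCM7 (diamond) lies below most of its neighbours, 23 of which were called lower and 3 higher.

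Of the 3 helicase activators 0 passed by limma's test, and 2 were lower at an unadjusted p under 0.05, as were 17.3% of all genes tested. GINS2 read 844 and 1354 in knockdown cells, against 1876 and 1424 in control cells (log2 change -0.60, SE 0.20, adjusted p = 0.066). The knockdown arrays differed from each other more than the higher one differed from the nearer control array. Its log2 change was -0.94 (adjusted p = 0.0035) without knockdown array 2 and -0.80 (0.022) without control array 2, but -0.27 (0.31) without knockdown array 1 and -0.41 (0.32) without control array 1. Its neighbours on chromosome 16 were called lower in 20 of 71 cases and higher in 1. GINS1 read 5138 and 5198 in knockdown cells, against 6512 and 6046 in control cells (log2 change -0.28, adjusted p = 0.092). CDC45 read 528 and 855 in knockdown cells, against 660 and 733 in control cells, and the groups overlapped (log2 change -0.05).

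At the fork all 5 genes had log2 changes below 0, as had 47.5% of all genes tested. Of the 5, 0 were past limma's adjusted threshold and 1 was lower at an unadjusted p under 0.05, against 17.3% of all genes. PCNA, the sliding clamp, read 9689 and 11749 in knockdown cells, against 12645 and 12322 in control cells (log2 change -0.23, adjusted p = 0.24). FEN1, the nuclease that trims Okazaki fragments, read 3329 and 4978 in knockdown cells, against 5113 and 5102 in control cells (log2 change -0.33, adjusted p = 0.20), and the value rests on knockdown array 1: the log2 change was -0.62 (adjusted p = 0.0015) without knockdown array 2 and -0.037 (adjusted p = 0.83) without knockdown array 1. The alignment listed first for this probe set is on chromosome 1 and the second on chromosome 11, where FEN1 lies, so the gene behind this signal is uncertain. The second FEN1 probe set read 1812 and 2320 in knockdown cells, against 3061 and 2533 in control cells. It did not pass either (log2 change -0.44, adjusted p = 0.057). Of the clamp loader subunits, RFC3 had a log2 change of -0.26 (adjusted p = 0.11) and RFC4 one of -0.07 (adjusted p = 0.70). A second RFC3 probe set passed (log2 change -0.43, adjusted p = 0.019). POLA1, the catalytic subunit of the priming polymerase, had a log2 change of -0.02 and overlapping groups.

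Of the genes of nucleotide supply, TYMS, thymidylate synthase, rose. It read 6217 and 7514 on the knockdown arrays, against 4620 and 3768 on the control arrays, a log2 change of 0.71 (SE 0.13, adjusted p = 0.0039). Its second probe set read 1948 and 2186 in knockdown cells, against 1179 and 1243 in control cells (log2 change 0.76, adjusted p = 0.0011). The groups did not overlap on either, although the adjusted p of the brighter one was 0.057 without control array 2.

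RRM2, the small subunit of ribonucleotide reductase, read 9371 and 10290 in knockdown cells, against 10806 and 11081 in control cells on its brightest probe set (log2 change -0.16, adjusted p = 0.37). On its other probe set it read 5123 and 6847 in knockdown cells, against 9581 and 10097 in control cells, and passed (log2 change -0.73, SE 0.14, adjusted p = 0.0040). RRM1, the large subunit, showed the same split between probe sets, with log2 changes of -0.05 (adjusted p = 0.81) and -0.64 (adjusted p = 0.012). Over all replication genes, 9 of 39 probe sets tested were called lower and 3 higher, against 8.3% and 7.24% of all 27307 probe sets, where 15.5% passed in either direction. Over all mitosis genes, 5 of 40 probe sets tested were called higher and 0 lower. For MCM4, GINS2, RFC3, RRM1 and RRM2, a dimmer probe set passed where the brightest did not; that of GINS2, at 39.8 and 51.2 in knockdown cells and 140 and 95.3 in control cells, was called absent on all 4 arrays.

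Cyclin E1 and cyclin E2, which activate CDK2 at the entry into S phase, were not both called. CCNE1 read 464 and 534 on the knockdown arrays, against 273 and 310 on the control arrays, and rose (log2 change 0.74, SE 0.17, adjusted p = 0.014). The call was lost without control array 1 (adjusted p = 0.10) and, narrowly, without knockdown array 2 (0.050). CCNE2 read 1873 and 1991 in knockdown cells, against 2445 and 1928 in control cells, with overlapping groups (log2 change -0.17, adjusted p = 0.42). The second CCNE2 probe set read 435 and 311 in knockdown cells, against 516 and 485 in control cells. Its groups did not overlap, and it did not pass (log2 change -0.43, adjusted p = 0.15). E2F1 read 150 and 195 in knockdown cells, against 251 and 208 in control cells on a probe set called present on control array 1 alone (log2 change -0.39, adjusted p = 0.30). Its second probe set was called present on all 4 arrays, at 114 and 170 in knockdown cells and 167 and 140 in control cells (log2 change -0.12, adjusted p = 0.81). E2F2 read 449 and 670 in knockdown cells, against 513 and 523 in control cells (log2 change 0.08).

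Of the 6 mitotic kinases 2 rose, AURKA and BUB1, where 8.74% of all genes tested were called higher. The other 4 had log2 changes above 0, as had 52.5% of all genes, and did not pass (adjusted p between 0.15 and 0.49). AURKA, which builds the spindle poles, read 5485 and 5939 on the knockdown arrays, against 4223 and 4168 on the control arrays, a log2 change of 0.44 (SE 0.10, adjusted p = 0.014). Another AURKA probe set also passed (log2 change 0.52, adjusted p = 0.0064), and the third, a dim one, did not (0.25, adjusted p = 0.71). The groups did not overlap, but with control array 1 left out the adjusted p was 0.12, and with control array 2 left out it was 0.14.

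BUB1, a kinase of the spindle checkpoint, read 2686 and 2694 in knockdown cells, against 1823 and 2117 in control cells (log2 change 0.45, SE 0.11, adjusted p = 0.020; 0.25 without control array 1). A dimmer BUB1 probe set, called present on all 4 arrays, had overlapping groups and went the other way (log2 change -0.17, adjusted p = 0.71). With the mean over its probe sets BUB1 was not called. BUB1B, the relative of BUB1 in the same checkpoint, read 3260 and 2961 in knockdown cells, against 2471 and 2885 in control cells, and did not pass (log2 change 0.22, adjusted p = 0.24). PLK1, which drives mitotic entry, read 267 and 211 in knockdown cells, against 134 and 180 in control cells, a difference close to that of KIF20A with a wider error (log2 change 0.56, SE 0.24, adjusted p = 0.15). AURKB, of the chromosomal passenger complex, and the checkpoint kinase TTK had log2 changes of 0.24 and 0.12 and did not pass.

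Cyclins and the machinery that destroys them leaned the same way, with no overlap between groups for any of the 5 genes. On the higher side 32.1% of all genes tested had no overlap either, and UBE2C alone of the 5 passed. UBE2C, the ubiquitin-conjugating enzyme of the anaphase-promoting complex, read 9557 and 11500 on the knockdown arrays, against 7433 and 7973 on the control arrays (log2 change 0.44, SE 0.12, adjusted p = 0.026; 0.25 when control array 1 was left out, 0.12 when control array 2 was). CDC20, the activator of that complex, read 5886 and 7903 in knockdown cells, against 4528 and 5651 in control cells (log2 change 0.43, adjusted p = 0.080). CCNA2, the cyclin of S phase and early mitosis, read 3587 and 3836 in knockdown cells, against 2972 and 2963 in control cells, and just missed the threshold (log2 change 0.32, SE 0.10, adjusted p = 0.058). CCNB1 had a log2 change of 0.30 (adjusted p = 0.11) and CCNB2 one of 0.11 (adjusted p = 0.51).

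Of the spindle genes KIF20A, a kinesin of the central spindle and cytokinesis, rose. It read 3213 and 3612 on the knockdown arrays, against 2062 and 2563 on the control arrays, a log2 change of 0.56 (SE 0.13, adjusted p = 0.012). Leaving out control array 1 raised the adjusted p to 0.16. KIF11, the kinesin that separates the poles, and KIF23, of the midbody, had log2 changes of 0.09 and -0.08. NUSAP1 and TPX2, which bind spindle microtubules, had log2 changes of 0.13 and 0.21. None of these 4 passed.

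The centromere genes CENPA, CENPE and CENPF had log2 changes of -0.11, 0.11 and 0.17, and the groups overlapped for each of them. MKI67, the gene of the proliferation marker Ki-67, read 1926 and 2084 in knockdown cells, against 1926 and 2491 in control cells (log2 change -0.13, adjusted p = 0.57). TOP2A, which untangles sister chromatids, read 8691 and 9751 in knockdown cells, against 7797 and 8708 in control cells (log2 change 0.16, adjusted p = 0.38), and BIRC5, the survivin gene, had a log2 change of 0.29 (adjusted p = 0.099).

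Other genes of the cell cycle, also chosen with earlier results of these data known, were set beside these in 10 lists. In the 3 lists of replication (origin recognition and loading, polymerases and Okazaki fragments, nucleotide supply) 11 of 43 genes fell (25.6%, against 10.6% of all genes) and 2 rose, with a median log2 change of -0.12. Of the 16 origin genes 4 fell: TIMELESS, of the fork protection complex (log2 change -0.65, adjusted p = 0.0021), CDC7, the kinase that fires origins (-0.57, adjusted p = 0.021), TOPBP1 (-0.39, adjusted p = 0.023) and GMNN, the inhibitor of CDT1. None of them rose. Of 17 polymerase genes 6 fell and none rose. RFC1, the large clamp loader subunit, had a log2 change of -1.06 (adjusted p = 0.00015), POLD2, a polymerase delta subunit, one of -0.81 (adjusted p = 0.0023) and RPA2, of the single-strand binding protein, one of -0.58 (adjusted p = 0.0069).

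Of those, RFC1 and POLD2 lay in stretches where most neighbours fell. Around RFC1, on chromosome 4, 15 of 25 genes tested within 5 Mb were called lower, and around POLD2, on chromosome 7, 24 of 43. Around TIMELESS, RPA2 and CDC7 the counts were 2 of 114, 11 of 124 and 3 of 40. In nucleotide supply, GMPS, which makes GMP, rose (log2 change 0.40, adjusted p = 0.021), and RRM2B, the alternative small reductase subunit, fell (-0.58, adjusted p = 0.015).

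**Figure D5:**
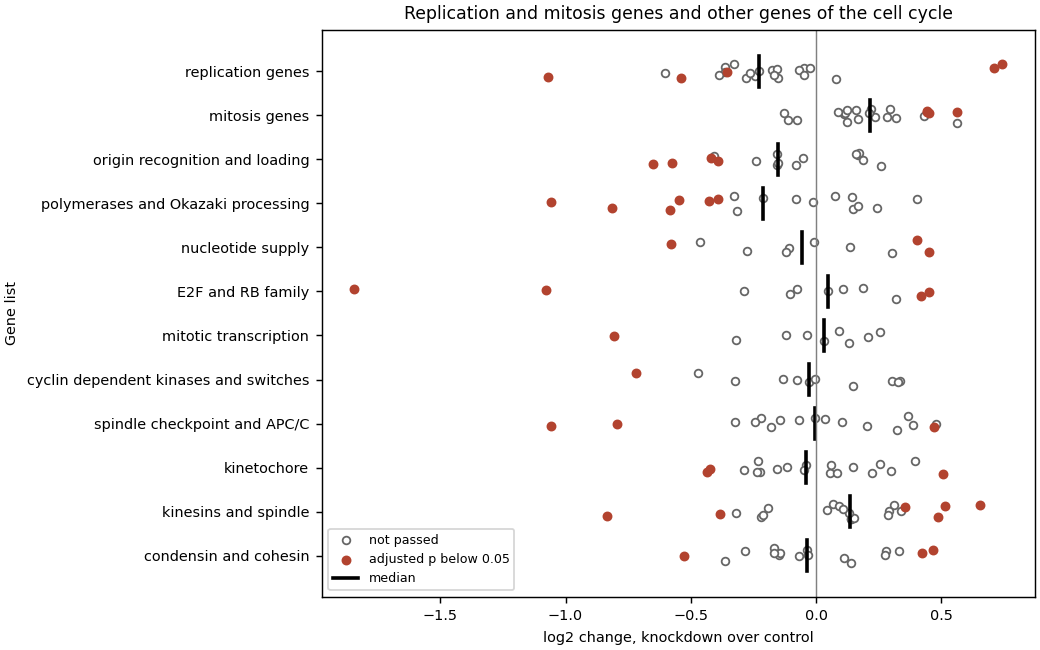
Log2 change, knockdown over control, of the replication genes, the mitosis genes and the genes of 10 other cell cycle lists; each point is a gene, filled points passed the threshold, and the bar is the list's median. The lists of origin and polymerase genes have medians of -0.15 and -0.21 and called genes on the lower side alone, and the kinesin and spindle list has a median of 0.14 with called genes on both sides.

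The other mitotic genes lay on both sides. Over the spindle checkpoint, kinetochore, kinesin and spindle, and condensin and cohesin lists, 8 of 75 genes tested rose (10.7%, against 8.74% of all genes) and 7 fell (9.33%, against 10.6%), with a median log2 change of 0.06. In the kinesin and spindle list 4 of 22 rose, SPAG5 (log2 change 0.52, adjusted p = 0.011), KIF14 (0.49, adjusted p = 0.014), HMMR (0.66) and ASPM (0.35), and 2 fell, TACC3 (-0.83, adjusted p = 0.0053) and CEP55. The kinetochore gene NUF2 rose (0.51, adjusted p = 0.0084), and CENPK and DSN1 fell (-0.43 and -0.42). In the condensin and cohesin list SGO2, which protects centromeric cohesion, and STAG2 rose (0.47 and 0.42), and NCAPG2 fell (-0.53).

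In the list of spindle checkpoint and anaphase-promoting complex genes, 1 of 17 tested rose and 2 fell. Those shares were 5.88% and 11.8%, against 8.74% and 10.6% of all genes. ANAPC4 fell (log2 change -1.06, adjusted p = 0.00015), as did CDC23 (-0.80, adjusted p = 0.00066), and CDC16 rose (0.47, adjusted p = 0.014). Of the neighbours of ANAPC4, on chromosome 4, 9 of 10 were called lower, and of those of CDC16, on chromosome 13, 14 of 25 were called higher and none lower. For CDC23, on chromosome 5, 6 of 74 neighbours were lower and 7 higher. TACC3, on chromosome 4, had 30 of 56 neighbours called lower.

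The regulators of the cycle were split. In the E2F and RB list 2 of 11 fell and 2 rose, where 10.6% of all genes tested were called lower and 8.74% higher. E2F7, a repressor among the E2F factors, read 682 and 688 on the knockdown arrays, against 1475 and 1448 on the control arrays (log2 change -1.08, adjusted p = 0.00016), and the arrays of a group lay close together. E2F5 read 31.9 and 26.04 in knockdown cells, where it was called absent, against 119 and 176 in control cells, where it was called present, and was at least 3.59-fold lower (adjusted p = 0.0039). That ratio takes the undetected knockdown signal as an upper bound of the level and leaves out the error of the fit (log2 change -1.84, SE 0.34). TFDP1 and TFDP2, partners of the E2F factors in DNA binding, rose (0.42 and 0.45, adjusted p = 0.017 and 0.024), TFDP1 in a stretch of chromosome 13 where 14 of 25 neighbours were called higher.

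In the list of mitotic transcription factors MYBL2 alone of 9 passed (log2 change -0.81, adjusted p = 0.0066), and in that of cyclin-dependent kinases and their switches SKP2 alone of 11 (-0.72, adjusted p = 0.0028), both lower. Over all genes tested 19.3% passed. SKP2, the ubiquitin ligase subunit that removes the inhibitor p27, lies on chromosome 5, where 19 of 34 neighbours were called lower. MYBL2, which binds at CHR elements with the MuvB complex, had 1 of 55 neighbours called lower and 7 higher.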

How the data were processed

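Expression in 2 HAI-1 knockdown and 2 control SAS samples was measured on Affymetrix arrays from 6 ug of total RNA per the labels' protocols. The deposited intensities are MAS5 signals (the submitters' processing notes name the tool alone). Their trimmed mean (2% from each end) is 500.1 on every array. The detection p-values and present calls are the authors' own. Recomputing showed that the deposited log2 values subtract from each log2 signal the median of its probe set over the 4 arrays, in all 54675 rows.

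Array controls were left out. Probe sets were named by Entrez number with current symbols, and probe sets of several genes were not used. Probe sets whose mean log2(signal + 16) lay at or above the median (a signal of 55.4) were fitted with limma 3.58.1 in R 4.3.3 (lmFit, eBayes with trend, 2 residual and 9.04 prior degrees of freedom, two-sided). With 2 arrays a group, the smallest two-sided exact permutation p is 0.333. The number of arrays limits the precision. The fit was tested on simulated data. Alternatives changed pseudocount, filter, scaling, variance trend, probe set rule and arrays.

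The members and lists were chosen with earlier results of these data known. Genes named are SPINT1, called members, the MCM ring, cyclins and E2F pair, the strongest member of each role and up to 3 called genes per other list; the remaining members, and further called genes of those lists, are named beyond that rule, after their values were seen. Same-numbered arrays deviated from their group means with a correlation of -0.03. Some genes of the lists are not reported here by name.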

Additional observations from a re-analysis of the deposited data

How the results depend on the processing

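Under the alternatives run, the median log2 change stayed below 0 for the replication genes and above 0 for the mitosis genes, and no called gene changed sign. The calls themselves were less stable. Without a filter the fit called 921 probe sets higher and 1290 lower (1977 and 2267 as reported), with 1 replication gene lower and 0 mitosis genes higher, where limma as reported called 3 and 4. Without the variance trend the counts were 630 and 887 probe sets, with 0 replication genes higher, 1 lower and 0 mitosis genes higher. The upper quartile filter called 1 replication gene higher, TYMS, and removed CCNE1 before the test. Quantile normalization called 5 replication genes lower, as did the brightest probe sets without a suffix. The mean over the probe sets of a gene called 1 replication gene higher. With that mean CDC6, MCM6, CCNE1, AURKA and BUB1 lost their calls, and GINS2, RRM1, RRM2 and TOP2A gained one. Leaving out 1 array gave 1036 to 2197 probe sets higher and 1164 to 2579 lower, 1 to 2 replication genes higher, 1 to 8 lower and 0 to 9 mitosis genes higher, with medians of -0.29 to -0.12 and 0.094 to 0.32; the lone array left in a group is assumed to vary like the others. The replicate block is not borne out as a pairing (deviation correlation -0.03) and called 2050 probe sets higher and 2315 lower, 2 replication genes higher and 3 lower and 5 mitosis genes higher; MCM6 lost its call (adjusted p = 0.060), and GINS2 (0.031) and CDC20 (0.021) gained one. For 8 genes not called, the sign of the log2 change turned when the array in brackets was left out, over a range of -0.39 to 0.29 for CDC45 (knockdown array 1 or control array 2), -0.15 to 0.097 for POLA1 (knockdown array 1), -0.20 to 0.36 for E2F2 (knockdown array 2), -0.34 to 0.0017 for CCNE2 (control array 1), -0.021 to 0.36 for CENPF (control array 1), -0.12 to 0.025 for RRM1 (control array 2), -0.25 to 0.023 for CENPA (control array 2) and -0.31 to 0.057 for MKI67 (control array 2); for CDC45 the change was 0.29 without knockdown array 1 and 0.026 without control array 2. The cause of these changes was not tested. Signal over background limits dim probe sets, such as the brighter one of E2F1, called present on 1 array.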
